A study of Mus musculus with 2 samples.

Results

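The alpha and beta tubulin isotype genes were examined by name: 10 genes, 4 of the alpha class (*Tuba1a*, *Tuba1b*, *Tuba1c* and *Tuba4a*) and 6 of the beta class (*Tubb2a*, *Tubb2b*, *Tubb3*, *Tubb4b*, *Tubb5* and *Tubb6*), all found among the 23183 genes measured. The study sequenced mRNA from mouse lung cancer cells to find genes regulated by Runx3, with 1 library of KPR- cells and 1 library of KPRrestored cells. KPR- is an immortalized line grown from a lung tumor of a mouse carrying *Runx3* flox/FSF, *K-Ras* LSL-G12D/+, a Tomato reporter, Flp ERT2 and *p53* flox/flox. Adenoviral Cre, driven by the *CMV* promoter, had switched on oncogenic K-Ras and removed *p53* and the floxed *Runx3* allele, so both groups share these changes. In KPR- the remaining *Runx3* allele is kept off by a *Frt-Stop-Frt* cassette (labelled RUNX3 -/-), and in KPRrestored the cassette was removed by Flp ERT2 after 4-hydroxytamoxifen (4-OHT), an active form of tamoxifen (labelled RUNX3 -/+). The labels mark the libraries as 0 h and 16 h and give 1 μM 4-OHT for both. The effects of restored *Runx3*, of 4-OHT and of time in culture cannot be told apart in these libraries, and no difference could be set against the spread between cultures, since there are no replicates.

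Microtubules are hollow polymers of alpha-beta tubulin heterodimers that form the mitotic spindle, the tracks of intracellular transport and the core of cilia. Mammals encode several isotypes of each class, which differ mainly in the acidic tail at the end of the protein, where most modifying enzymes act. *Tubb5*, *Tubb4b*, *Tuba1b* and *Tuba1c* are widely expressed in dividing cells, whereas *Tuba1a*, *Tubb2a*, *Tubb2b* and *Tubb3* are best known from neurons, and *Tubb3* also from carcinomas and from resistance to microtubule drugs. Cells adjust tubulin mRNA to the pool of free tubulin: TTC5 recognizes the amino end of a tubulin chain as it leaves the ribosome and, with SCAPER and the CCR4-NOT deadenylase, has the mRNA degraded.

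The bases that encode the recognized peptide are shown first, since each isotype begins with such a peptide, alike within its class. The first 4 codons encode MREC in 4 of 4 alpha members and MREI in 6 of 6 beta members. The bases are printed for 4 members, from the GENCODE M21 transcripts, with capitals for the whole stretch that encodes the 4 residues.
Tuba1a: ATGCGTGAGTGC
Tuba4a: ATGCGCGAGTGC
Tubb2b: ATGCGAGAGATC
Tubb5: ATGAGGGAAATC

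Several of the isotypes are hard to tell apart by short reads, which bears on the values of the *Tuba1* genes and of the *Tubb2* pair. *Tuba1a* and *Tuba1b* lie 15.3 kb apart on chromosome 15 of GRCm38 (98949837 to 98953703 and 98931425 to 98934565, both on the minus strand), and *Tubb2a* and *Tubb2b* lie 48.7 kb apart on chromosome 13 (34074274 to 34078007 and 34126748 to 34130466, minus strand). The proteins of *Tuba1a* and *Tuba1b*, of 451 residues each, differ at 2 residues, and their coding sequences are 98.3% identical. Those of *Tubb2a* and *Tubb2b*, of 445 residues each, also differ at 2 residues, with 96.5% identical coding bases. The last 60 coding bases of *Tubb2a* and *Tubb2b*, which encode the acidic tail, are printed with the 3 differing bases in capitals, to show how alike the pair is. These 3 differences do not change the encoded residues, so the 2 residues that differ lie elsewhere in the protein.
Tubb2a: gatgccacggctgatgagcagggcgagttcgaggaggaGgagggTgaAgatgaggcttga
Tubb2b: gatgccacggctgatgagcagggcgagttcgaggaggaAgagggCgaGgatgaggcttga

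Because the reads were 100 bases long, each transcript was compared with every annotated transcript in windows of 100 bases. The reads were paired but windows were taken singly, so a fragment in a shared window may still be placed by its other read. Of the windows of *Tuba1a*, 38.4% occurred exactly in another of the 10 genes and 65.8% in any other gene. For *Tuba1b* these shares were 52.3% and 73.0%, and for *Tuba1c* both were 53.4%. The other genes were mostly processed pseudogenes, and Gm49450, an annotated gene that spans *Tuba1b* and *Tuba1a*. Of these pseudogenes *Gm6682* was analysed here, at 4.47 FPKM in KPR- and 5.38 FPKM in KPRrestored. *Tubb2a* and *Tubb2b* shared 35.9% and 26.1% of their windows with each other, and *Tubb4b* shared 30.6% with other genes, none of them a member. *Tuba4a* shared 46.7% with *Stk16*, a kinase gene on the opposite strand, and the strand setting of the counting is not given in the sources used here. *Tubb3*, *Tubb5* and *Tubb6* had 0 windows in common with another annotated gene. How reads that match several genes were divided was not given either, so single values of the *Tuba1* genes and of the *Tubb2* pair are uncertain, and their sums are given beside them.

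**Figure D1:**
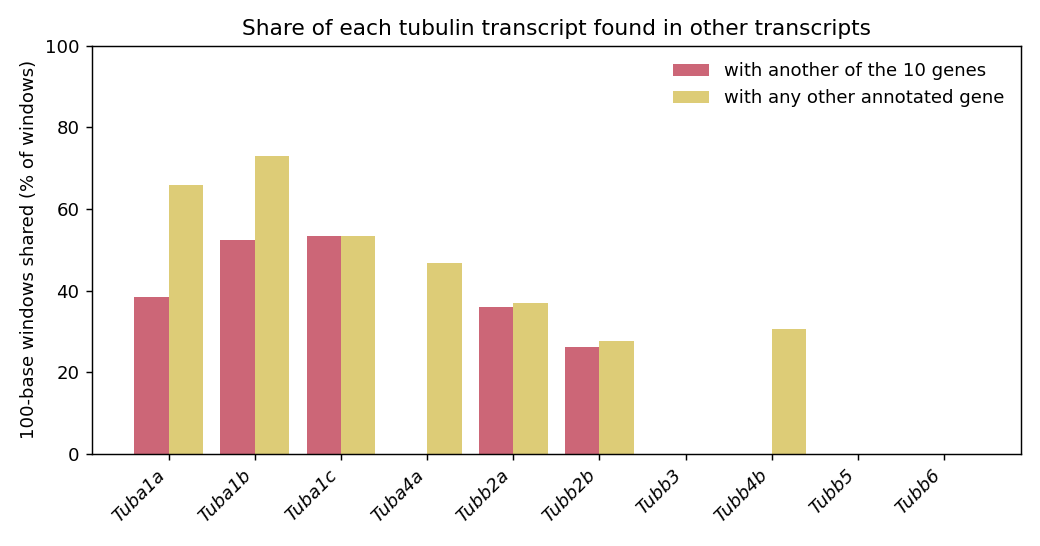
Share of the 100-base windows of each member's transcript (y axis, percent) that occurs exactly in the transcripts of another of the 10 genes (red) or of any other annotated gene (yellow), by gene (x axis). *Tuba1b* reaches 73.0%, whereas *Tubb3*, *Tubb5* and *Tubb6* are at 0.

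The values are FPKM, fragments scaled to transcript length and library size. The steps of low values placed the depth, on the scale of these values, at about 21800000 fragments for KPR- and 22400000 fragments for KPRrestored. Fragments per gene were estimated from it, and all 95% intervals below cover counting error only. *Runx3* had 0.348 FPKM in KPR- and 0.349 FPKM in KPRrestored, from about 28 and 29 fragments, and the value per gene does not separate transcripts of the restored allele. It therefore does not check the labels, and each direction is that of the library labelled KPRrestored against the library labelled KPR-. Among the lung epithelium markers, *Krt8*, *Krt18*, *Krt19*, *Epcam* and *Cdh1* were between 91.6 and 1931 FPKM in both libraries, whereas *Nkx2-1* was at 0.0444 and 0.0216 FPKM and *Sftpc* and *Scgb1a1* were listed at 0, so the defining markers of lung identity were absent or nearly so. *Vim*, a mesenchymal marker, was at 1777 and 1464 FPKM.

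Each difference is log2(FPKM + 0.005) in KPRrestored less the same in KPR-, and 0.5 in either direction served as the threshold. In the library labelled KPRrestored, 4 of the 10 tubulin genes were higher by this threshold (*Tubb3*, *Tubb2b*, *Tubb2a* and *Tuba1a*), 0 were lower, and 6 lay within it. Of the 11231 expressed genes, those averaging 1 FPKM or more over both libraries, 12.1% were higher and 9.29% were lower by as much. The members' transcripts are 1598 to 2840 bases long, and of 3612 expressed genes with transcripts of 1500 to 3000 bases 15.01% were higher, with a median difference of 0.070. The median difference was 0.20 over the 10 members and 0.0086 over the expressed genes. The call of *Tuba1a* was lost under each of the 4 other scalings and centrings tried, which left 3 higher members. *Tubb3*, *Tubb2b* and *Tubb2a* were the least abundant members in both libraries. In bulk RNA, more cells that express a gene and more RNA per cell cannot be told apart.

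**Figure D2:**
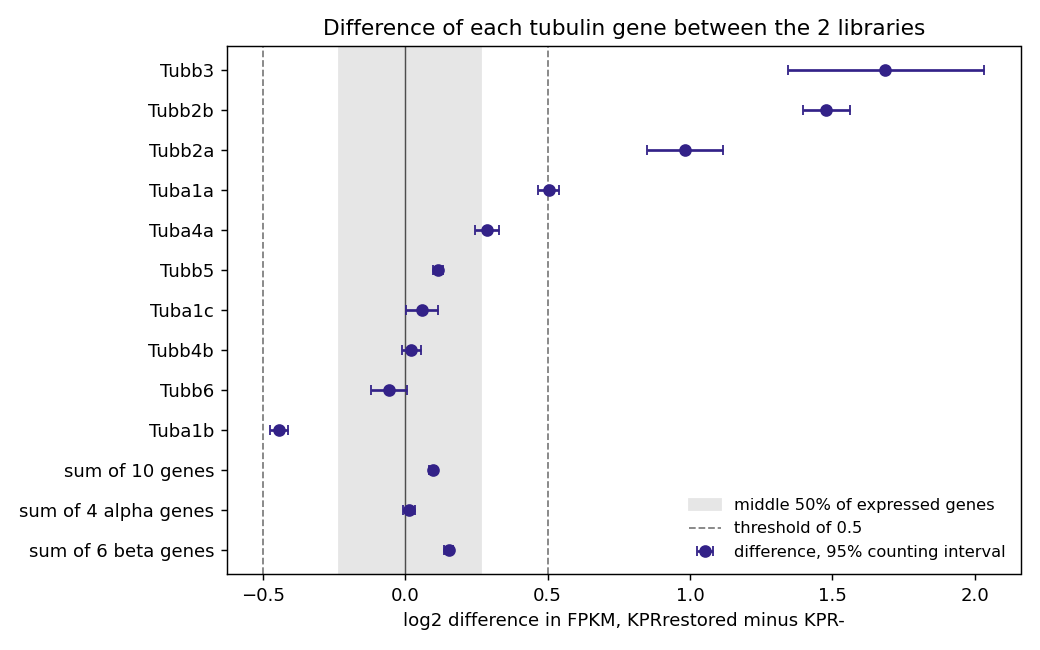
Log2 difference in FPKM between KPRrestored and KPR- (x axis) for each member and for the sums (y axis), with 95% counting intervals. The grey band, from the lower to the upper quartile of all expressed genes, runs from -0.23 to 0.27, and *Tubb2a*, *Tubb2b* and *Tubb3* lie at 0.98 or above.

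*Tubb3* encodes the class III beta tubulin used as a neuronal marker. It lies on chromosome 8 from 123411424 to 123422015 (plus strand). Its level was 2.56 FPKM in KPR- (95% interval 2.08 to 3.15) and 8.25 FPKM in KPRrestored (7.36 to 9.24), from about 93 and 307 fragments. The intervals of the 2 libraries did not overlap, and the log2 difference was 1.68 (1.34 to 2.03), the largest among the members. Of all expressed genes, 91 (0.81%) had a difference as large or larger in this direction. *Tubb3* stayed the least abundant member, and *Tubb5* had 329.6 times its FPKM in KPR- and 110.8 times its FPKM in KPRrestored.

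The neuronal markers listed did not all differ in the direction of *Tubb3*. Of the 5, *Rbfox3* was listed at 0 in both libraries and *Dcx* was at 0.0052 and 0.0051 FPKM. *Snap25* had 1.12 and 1.56 FPKM, *Map2* had 3.19 and 2.65 FPKM, and *Syp* had 0.281 and 0.254 FPKM. Summed over the 5 genes, the level was 4.61 FPKM in KPR- and 4.47 FPKM in KPRrestored, most of it *Map2*. Of the 2 that were expressed, *Snap25* had a log2 difference of 0.47 (-0.087 to 1.04) and *Map2* of -0.27 (-0.48 to -0.062). Thus 0 of the 2 differed by 0.5 or more. Over all expressed genes 12.1% were higher and 9.29% were lower by as much, so a count over 2 genes says little.

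*Tubb2b*, an isotype abundant in the developing brain, had 38.3 FPKM in KPR- (36.4 to 40.2) and 107 FPKM in KPRrestored (104 to 110), from about 1646 and 4714 fragments. The 2 intervals lay far apart, with a log2 difference of 1.48 (1.40 to 1.56), and 126 expressed genes (1.12%) differed as far upward. Its neighbour *Tubb2a* had 22.4 FPKM in KPR- (20.8 to 24.2) and 44.3 FPKM in KPRrestored (42.0 to 46.7), a log2 difference of 0.98 (0.85 to 1.12).

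The sum of the *Tubb2* pair, which depends less than either gene on how shared reads were divided, was also higher in KPRrestored. It is not free of that division, since FPKM is scaled to transcripts of 1610 bases for *Tubb2a* and 2182 bases for *Tubb2b*. Summed, *Tubb2a* and *Tubb2b* stood at 60.7 FPKM in KPR- and 151 FPKM in KPRrestored, with a log2 difference of 1.31 (1.24 to 1.38). *Tubb2a-ps2*, the annotated pseudogene that shares windows with both, was listed at 0 in both libraries. The ratio of *Tubb2b* to *Tubb2a* was 1.71 in KPR- and 2.41 in KPRrestored, and the part that read assignment has in it was not tested.

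The most abundant beta isotypes differed little. *Tubb5*, the main beta tubulin of dividing cells (chromosome 17, 35833921 to 35838306, minus strand), had 845 FPKM in KPR- (837 to 853) and 915 FPKM in KPRrestored (907 to 923), a log2 difference of 0.11 (0.096 to 0.13). *Tubb4b*, which also builds ciliary axonemes (chromosome 2, 25222160 to 25224702, minus strand), had 480 FPKM in KPR- and 488 FPKM in KPRrestored, with overlapping intervals and a log2 difference of 0.022 (-0.011 to 0.055). *Tubb6*, a divergent isotype, had 120 FPKM in KPR- and 115 FPKM in KPRrestored, a log2 difference of -0.056 (-0.12 to 0.0074). For *Tubb4b* and *Tubb6* the difference was not detectable beyond counting error.

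Of the alpha genes, *Tuba1a* and *Tuba1b* differed in opposite directions. *Tuba1a*, the main alpha tubulin of developing neurons, had 272 FPKM in KPR- (266 to 277) and 385 FPKM in KPRrestored (379 to 391), a log2 difference of 0.50 (0.47 to 0.54). *Tuba1b*, the widely expressed isotype, had 523 FPKM in KPR- (515 to 531) and 384 FPKM in KPRrestored (378 to 391), a log2 difference of -0.44 (-0.48 to -0.41), within the threshold. *Tuba1b* thus stood at 1.93 times the level of *Tuba1a* in KPR- and at the same level, within counting error, in KPRrestored.

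The difference of *Tuba1a* was at the threshold itself, and it ranged from 0.43 to 0.50 over 5 alternatives, under 0.5 in 4 of them. *Tuba1a* and *Tuba1b* share 448 windows of 100 bases directly, and they share 594 and 799 windows with *Tuba1c*. The summed level of *Tuba1a* and *Tuba1b* was 794 FPKM in KPR- and 769 FPKM in KPRrestored, a log2 difference of -0.046 (-0.071 to -0.022). With *Tuba1c* added, the sum was 922 FPKM in KPR- and 902 FPKM in KPRrestored, a log2 difference of -0.031 (-0.054 to -0.0089). The part that read assignment has in the opposite directions of the pair was not tested.

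The remaining alpha genes were closer in level. *Tuba4a* (chromosome 1, 75214228 to 75219865, minus strand), an isotype whose RNA encodes no terminal tyrosine, had 136 FPKM in KPR- and 166 FPKM in KPRrestored, a log2 difference of 0.29 (0.24 to 0.33). *Stk16*, which overlaps its transcript, had 19.6 and 21.4 FPKM. *Tuba1c* (chromosome 15, 99029891 to 99038110, plus strand) had 127 FPKM in KPR- and 132 FPKM in KPRrestored, a log2 difference of 0.058 (0.0018 to 0.11).

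**Figure D3:**
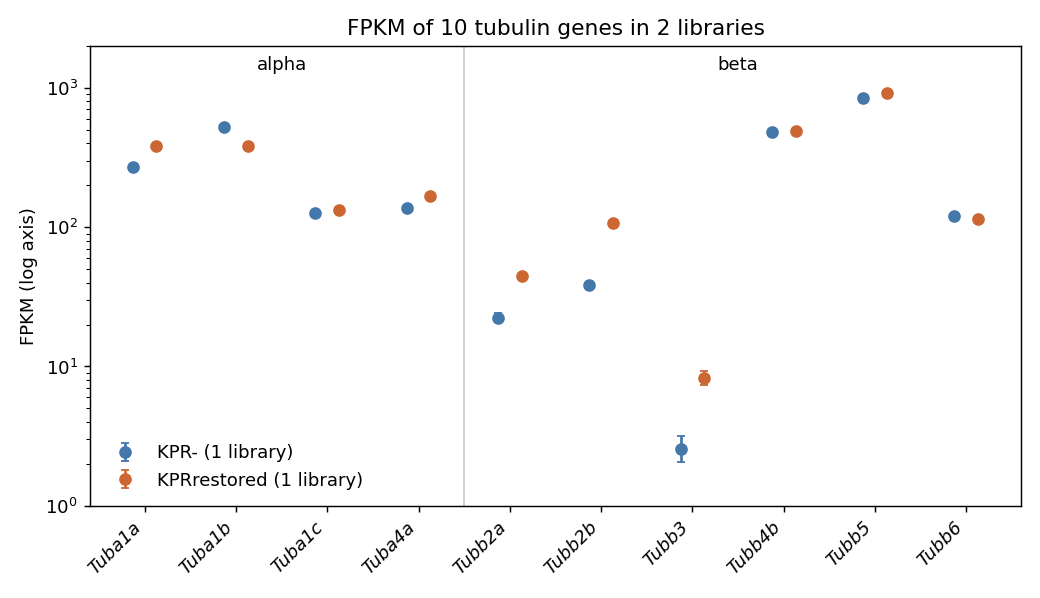
FPKM (y axis, log scale) of the 4 alpha and 6 beta genes (x axis) in the KPR- library (blue) and the KPRrestored library (orange), with 95% counting intervals. *Tubb2a*, *Tubb2b* and *Tubb3* are the lowest in both libraries and the furthest apart between them, and *Tuba1a* and *Tuba1b* meet at 385 and 384 FPKM in KPRrestored.

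By level, the order in KPR- was *Tubb5*, *Tuba1b*, *Tubb4b*, *Tuba1a*, *Tuba4a*, *Tuba1c*, *Tubb6*, *Tubb2b*, *Tubb2a* and *Tubb3*, and no neighbours had overlapping counting intervals. In KPRrestored *Tubb4b* and *Tuba1a* stood before *Tuba1b*, the intervals of *Tuba1a* and *Tuba1b* overlapped, and the rest of the order was alike. Among all 23183 genes, *Tubb5* ranked 100 in KPR- and 91 in KPRrestored by FPKM. *Tubb2b* ranked 2371 and 788, and *Tubb3* ranked 9977 and 7349.

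The 10 genes together made 2566 FPKM in KPR- and 2745 FPKM in KPRrestored, which is 0.492% and 0.524% of all FPKM, a log2 difference of 0.097 (0.085 to 0.11). The alpha sum was 1058 and 1068 FPKM, a log2 difference of 0.014 (-0.0062 to 0.034), not detectable beyond counting error. The beta sum was 1508 and 1677 FPKM, a log2 difference of 0.15 (0.14 to 0.17). The ratio of alpha to beta FPKM was 0.701 in KPR- and 0.637 in KPRrestored. Of the 168 FPKM by which the beta sum was higher, *Tubb5* made 69.7 FPKM and *Tubb2b* made 68.4 FPKM, although *Tubb5* was 22.1 times as abundant as *Tubb2b* in KPR-. *Tubb2a* made 21.9 FPKM of it and *Tubb3* made 5.69 FPKM.

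Shares do not depend on how the libraries are scaled. Of all tubulin FPKM, *Tubb5* made 32.9% in KPR- and 33.3% in KPRrestored, *Tubb4b* 18.7% and 17.8%, *Tuba1b* 20.4% and 14.01%, and *Tuba1a* 10.6% and 14.03%. *Tubb2a*, *Tubb2b* and *Tubb3* together made 2.47% and 5.80%. Within the alpha class, *Tuba1b* made 49.4% in KPR- and 36.0% in KPRrestored and *Tuba1a* made 25.7% and 36.0%, while *Tuba4a* was at 12.9% and 15.6% and *Tuba1c* at 12.01% and 12.4%. Within the beta class, *Tubb5* was at 56.0% and 54.6%, *Tubb4b* at 31.8% and 29.1%, *Tubb6* at 7.92% and 6.86%, *Tubb2b* at 2.54% and 6.36%, *Tubb2a* at 1.49% and 2.64%, and *Tubb3* at 0.170% and 0.492%.

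**Figure D4:**
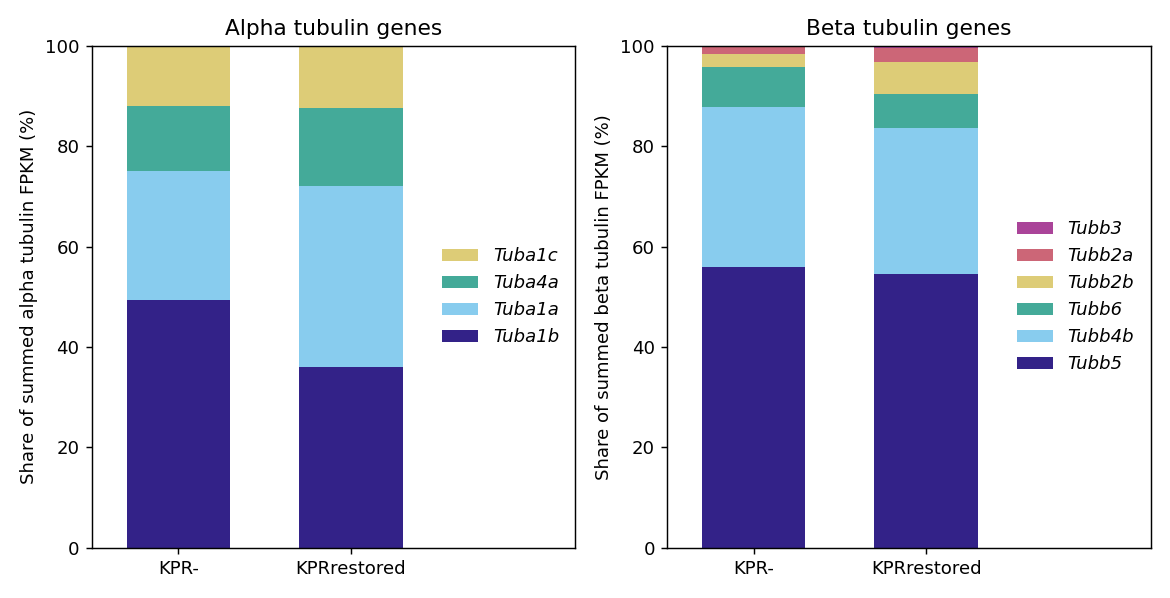
Share of the summed alpha (left) and beta (right) tubulin FPKM (y axis, percent) made by each isotype in the KPR- and KPRrestored libraries (x axis). *Tuba1b* and *Tuba1a* each make 36.0% of the alpha class in KPRrestored, against 49.4% and 25.7% in KPR-, and *Tubb5* makes 56.0% and 54.6% of the beta class.

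Promoters from RefSeq (GRCm38.p6) were examined for 8 of the 10 genes, all but *Tubb2b* and *Tubb6*, as 250 bases before and 50 bases after the transcript start. The RUNX core motif TGTGGT, on either strand, was found in 0 of the 8, against 16.8% of all 32851 promoters. The GC box GGGCGG was found in 7 of the 8 (35.7% of all promoters), the CCAAT box in 5 (37.4%) and the TATA box TATAAA in 2 (13.6%). Of the TATA matches, that of *Tubb2a* lies at -29 and that of *Tubb4b* at +19, after the transcript start. A missing match says only that these letters are not in this window. The first 280 bases are printed for the higher genes *Tubb2a*, *Tubb3* and *Tuba1a* and, for contrast, for *Tuba1b*, with the GC, CCAAT and TATA motifs of either strand in capitals. *Tubb2a* is chr13:34077979-34078258 (minus strand), *Tubb3* is chr8:123411303-123411582 (plus strand), *Tuba1a* is chr15:98953472-98953751 (minus strand) and *Tuba1b* is chr15:98934361-98934640 (minus strand).
Tubb2a: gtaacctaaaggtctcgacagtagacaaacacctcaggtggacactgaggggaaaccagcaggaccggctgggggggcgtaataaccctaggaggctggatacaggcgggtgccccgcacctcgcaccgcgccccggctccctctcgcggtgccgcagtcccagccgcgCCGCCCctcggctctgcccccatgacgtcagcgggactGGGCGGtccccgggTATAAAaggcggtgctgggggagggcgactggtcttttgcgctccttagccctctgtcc
Tubb3: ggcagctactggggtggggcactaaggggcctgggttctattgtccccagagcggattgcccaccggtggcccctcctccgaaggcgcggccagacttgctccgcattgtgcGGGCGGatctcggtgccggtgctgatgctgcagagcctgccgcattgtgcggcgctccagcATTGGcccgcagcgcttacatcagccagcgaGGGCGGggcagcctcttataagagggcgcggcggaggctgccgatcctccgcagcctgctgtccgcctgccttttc
Tuba1a: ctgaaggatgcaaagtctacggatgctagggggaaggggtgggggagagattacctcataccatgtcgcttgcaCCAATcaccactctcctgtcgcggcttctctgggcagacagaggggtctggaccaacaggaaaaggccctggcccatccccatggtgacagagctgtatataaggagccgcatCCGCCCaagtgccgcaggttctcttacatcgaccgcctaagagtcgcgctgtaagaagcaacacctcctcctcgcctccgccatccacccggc
Tuba1b: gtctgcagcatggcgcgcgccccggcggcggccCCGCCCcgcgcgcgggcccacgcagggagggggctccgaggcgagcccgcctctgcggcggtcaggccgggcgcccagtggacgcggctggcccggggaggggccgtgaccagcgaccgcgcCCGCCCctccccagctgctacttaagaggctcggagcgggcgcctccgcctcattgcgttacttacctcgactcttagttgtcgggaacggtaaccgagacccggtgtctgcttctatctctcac

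The 3 higher genes with a promoter, *Tubb2a*, *Tubb3* and *Tuba1a*, did not share a layout of these exact letters. The higher gene *Tubb2b* was not among the genes with a promoter, and other forms of the motifs were not sought. *Tubb2a* has GC boxes at -81 and -43 and a TATA box at -29, counted from the transcript start to the leftmost base of the motif. *Tubb3* has GC boxes at -138 and -46 and a CCAAT box at -77, while *Tuba1a* has a CCAAT box at -176 and a GC box at -63. *Tuba1b* has GC boxes at -217 and -95 only.

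The tubulin genes outside the 10 were low or within the threshold, apart from *Tubd1*. *Tubb4a*, a brain beta tubulin, had 4.16 and 5.79 FPKM, a log2 difference of 0.47 (0.20 to 0.76), and *Tuba8* had 4.59 and 3.42 FPKM, a difference of -0.42 (-0.74 to -0.12). *Tuba3b* and *Tubb1* were listed at 0 in both libraries, and *Tuba3a* and *Tubal3* were at 0.0351 and 0.0158 FPKM in KPR- and listed at 0 in KPRrestored. *Tubg1*, the gamma tubulin that nucleates microtubules, had 56.3 and 58.6 FPKM, and *Tubg2* had 0.233 and 0.142 FPKM. *Tube1* had 3.18 and 2.79 FPKM and *Tubd1* had 4.07 and 2.85 FPKM, the latter a log2 difference of -0.51 (-0.86 to -0.16), a call that was lost with a minimum of 5 FPKM or a pseudocount of 1. Both encode tubulins needed for the triplet microtubules of centrioles.

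The list of tubulin folding cofactors and prefoldin held 14 genes. All 14 were expressed, with 1 higher and 0 lower by 0.5 or more. Of all expressed genes, 12.1% were higher and 9.29% were lower by as much, so these counts do not set the list apart. The median difference of the list was 0.16 against 0.0086 over all expressed genes. *Tbcc*, which completes the assembly of the heterodimer, had 9.20 and 15.8 FPKM, a log2 difference of 0.78 (0.52 to 1.05). *Tbcel* and *Pfdn6* had differences of 0.37 and 0.31, while *Pfdn1*, *Tbcd* and *Pfdn4* were at -0.25, -0.24 and -0.22.

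Of the 13 genes that act in the decay of tubulin mRNA, 0 were higher and 2 were lower, with a median of 0.021, where 12.1% and 9.29% of all expressed genes were higher and lower. *Cnot1*, the scaffold of CCR4-NOT, had 35.8 and 23.6 FPKM, a log2 difference of -0.60 (-0.66 to -0.55), and *Cnot6*, a deadenylase, had 35.3 and 24.5 FPKM, a difference of -0.53 (-0.60 to -0.46). The transcripts of *Cnot1* and *Cnot6* are long, at 8364 and 5736 bases, and of the 3509 expressed genes with transcripts of at least 4000 bases, a limit set after the values were seen, 13.1% were lower, with a median of -0.10. *Ttc5*, which recognizes the amino end of the tubulin chain, had 11.3 and 12.6 FPKM, a difference of 0.16 (-0.0040 to 0.34).

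Among 28 tubulin modifying enzymes, 17 were expressed, 3 were higher and 1 was lower, with a median of -0.0033. Over all expressed genes, 12.1% were higher and 9.29% were lower. *Sirt2*, a tubulin deacetylase, had 22.6 and 36.2 FPKM, a log2 difference of 0.68 (0.55 to 0.80). *Ttll1*, the catalytic subunit of a polyglutamylase that acts on the acidic tail, had 8.26 and 13.1 FPKM, a difference of 0.67 (0.47 to 0.87). *Vash2*, a detyrosinase, had 2.84 and 4.34 FPKM, a difference of 0.61 (0.37 to 0.85), a call lost with a minimum of 5 FPKM or a pseudocount of 1. *Agbl3*, a deglutamylase, had 1.42 and 0.957 FPKM, a difference of -0.56 (-1.001 to -0.12), a call lost in the same ways, and *Tpgs2* and *Ttll5* were at -0.46 and -0.45.

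Genes of the gamma-tubulin ring complex and its anchors were counted in the same way. Of 21 expressed genes of 22, 0 were higher and 3 were lower, with a median of -0.19. Among all expressed genes 12.1% were higher and 9.29% lower, and of those with transcripts of at least 4000 bases 13.1% were lower. *Cep192* had 12.4 and 7.43 FPKM, a log2 difference of -0.74 (-0.84 to -0.64), and *Pcnt* had 17.8 and 11.1 FPKM, a difference of -0.69 (-0.76 to -0.61). Both encode scaffolds of the centrosome. *Tubgcp4*, a ring subunit, was at -0.50 (-0.63 to -0.38), a call lost with a pseudocount of 1, while the small subunits *Mzt1* and *Mzt2* were at 0.35 and 0.22. The transcripts of *Cep192*, *Pcnt* and *Tubgcp4* are 8093, 9341 and 4250 bases long and those of *Mzt1* and *Mzt2* 2240 and 1035 bases, and the part of transcript length in these differences was not tested.

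Of 42 microtubule-associated and plus-end genes, 28 were expressed, 3 were higher and 1 was lower, with a median of -0.013. The shares over all expressed genes were 12.1% higher and 9.29% lower. *Map1lc3a* and *Map1lc3b*, named for their binding to microtubules and best known as autophagy markers, had log2 differences of 1.55 (1.32 to 1.78) and 0.76 (0.69 to 0.84). The plus-end genes *Mapre3* and *Mapre2* went apart, with differences of 0.60 (0.34 to 0.86) and -0.73 (-0.90 to -0.57). Of the stathmins, which bind free tubulin, only *Stmn1* was expressed, at 185 and 175 FPKM. The 7 expressed severing enzymes lay between -0.28 for *Fignl1* and 0.46 for *Katna1*.

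**Figure D5:**
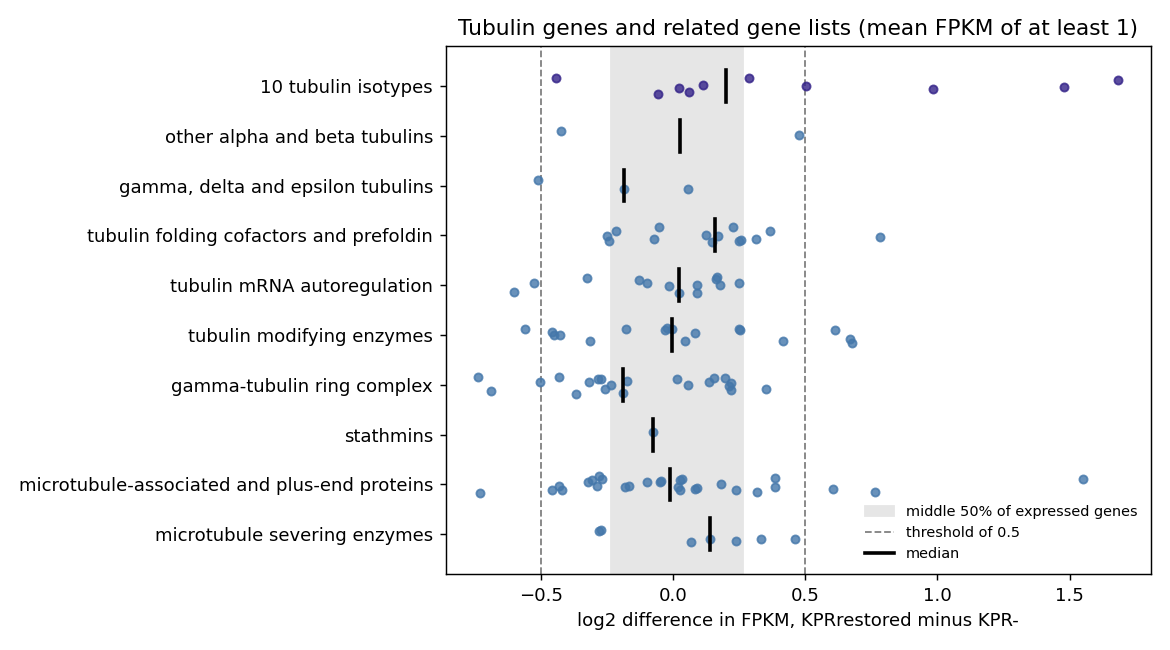
Log2 difference in FPKM between KPRrestored and KPR- (x axis) for each expressed gene of the 10 isotypes and of 9 lists of related genes (y axis), with a black line at each median. The isotypes spread from -0.44 to 1.68, and the gamma-tubulin ring complex has its median at -0.19.

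Markers of other cell types were mostly under 1 FPKM, but some were in the range of *Tubb3*. Of the multiciliated markers, whose cells build axonemes with *Tubb4b*, *Foxj1* had 2.78 and 0.656 FPKM, *Ccdc39* had 0.912 and 0.847 FPKM, *Rsph1* had 0.287 and 0.140 FPKM, and *Dnah5* had 0.0059 FPKM in KPR- and was listed at 0 in KPRrestored. Their summed level was 3.98 and 1.64 FPKM. The 4 immune markers summed to 3.08 and 6.79 FPKM, nearly all of it *Cd68*, with *Lyz2* and *Cd3e* at 0 in both libraries and *Ptprc* at 0 in KPR- and 0.0089 FPKM in KPRrestored. The 3 endothelial markers summed to 1.16 and 2.22 FPKM, nearly all of it *Kdr*. Apart from *Vim*, the mesenchymal markers were led by *Col1a1*, at 12.2 and 4.21 FPKM. The part of such cells in the tubulin values was not tested.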

How the data were processed

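Poly(A) RNA of 1 KPR- and 1 KPRrestored culture was sequenced as directional paired-end libraries. The authors trimmed the reads, mapped them using TopHat (mm10 in the submitters' processing notes) and deposited FPKM values estimated using Cufflinks, 1 value per gene and library for 23183 genes. The paper also names a geometric normalization of read counts in edgeR, and whether it entered these values was not given. If it did, the depth estimated here is on a normalized scale. Versions, annotation and read counts per gene were not given in the sources used here.

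Differences were computed as log2(FPKM + 0.005), which understates changes of genes near that value. Expressed genes average 1 FPKM or more over both libraries. The threshold of 0.5 follows the study's own sheet. No test of the conditions was possible. Depth was estimated as the value that places low FPKM of single-transcript genes (GENCODE M21, GRCm38) at whole fragments, for fragments averaging 210 bases. With it, 80.2% of 536 low values in KPR- and 82.5% of 548 in KPRrestored lay within 0.1 of a whole number. Chance gives 20% for a depth not fitted to these values, but depth and fragment length were both fitted to them. Fragments per gene use the longest transcript with a RefSeq counterpart. Intervals are 95% Clopper-Pearson limits of the ratio, exact Poisson limits of a level, and normal limits of a sum, for counting error only.

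All 10 members are named, with other tubulin genes, *Runx3*, markers, and up to 3 of the largest differences either way in each list, of which not every one is given with values. *Stk16*, *Tubb2a-ps2* and *Gm6682* were chosen after values were seen. Members and lists were chosen with earlier results of these data known. Symbols were matched directly or through a RefSeq synonym. Alternatives were pseudocounts, filters, a threshold of 1, scalings and other gene sets. Scripts ran on Python 3.11.15 with scipy 1.17.1, biopython 1.88, pandas 2.3.3, matplotlib 3.10.9 and numpy 2.4.6.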

Additional observations from a re-analysis of the deposited data

How the results depend on the processing

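The count of 4 higher members stayed within 3 to 4 under other pseudocounts, filters and scalings, and was 2 at a threshold of 1. *Tubb2a*, *Tubb2b* and *Tubb3* were past 0.5 under all 5 alternatives tried for single genes, whereas *Tuba1a* was past it under 1 of 5. The count of lower members was 1 (*Tuba1b*, at -0.51) with centring on genes with a transcript of 1500 to 3000 bases, whose median was 0.070, an alternative added after the values were seen, and 0 under the others. With that centring the log2 difference of the summed 10 genes was 0.028, of the alpha sum -0.056 and of the beta sum 0.083. With both libraries scaled to the same upper quartile they were 0.063, -0.020 and 0.12, so the sign of the alpha sum depends on the scaling. Without its most abundant gene, the alpha sum (without *Tuba1b*) was 0.35 and the beta sum (without *Tubb5*) 0.20. Adding the other 6 alpha and beta genes changed neither the sums nor any of 20 shares beyond counting error. Of 36 counts for related lists, 32 stayed within 1.5 times. The 4 others were the lower calls of *Tubd1* and *Agbl3*, lost with a minimum of 5 FPKM or a pseudocount of 1. Among the 32, the higher modifying enzymes went from 3 to 2 under both of these settings, without *Vash2*. The lower ring complex genes went from 3 to 2 with a pseudocount of 1, without *Tubgcp4*. The shortest transcript with a RefSeq counterpart was the longest for each member, so that alternative gave no value.

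No paired analysis was possible because each group has 1 library. Depth limits *Tubb3* most, with about 93 fragments in KPR-.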
